A study of Mus musculus with 8 samples.

Results

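Esrrb, Nr5a2 and Nr0b1 encode 3 nuclear receptors of mouse embryonic stem cells, and the acetylation of histone H3 at lysine 27 (H3K27ac) around these genes is described here. The members are the regions of the authors' deposited table whose nearest gene is 1 of the 3 and whose distance to the transcription start site (TSS) that the authors assigned is at most 100 kb. They number 27 of 112137 regions: 13 at Esrrb, 12 at Nr5a2 and 2 at Nr0b1. The rule uses no measured value. The farthest member lies 97871 bases from its TSS, in the 3′ untranslated region of Esrrb, and the nearest region left out lies 195532 bases upstream of Nr5a2.

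H3K27ac marks active promoters and enhancers and was profiled by CUT&Tag, in which an antibody against the mark brings a transposase to chromatin so that nearby DNA can be sequenced. There were 8 libraries in 4 groups of 2. Naive cells, the ground state of pluripotency, and formative cells, taken 63 hours after LIF2i was withdrawn, were each wild type (WT) or double knockout (DKO) for MLL3 and MLL4. MLL3 (gene Kmt2c) and MLL4 (gene Kmt2d) place monomethylation of histone H3 lysine 4 (H3K4me1) at enhancers. The WT cells were of the R1 line, and the labels name no line or clone for the DKO cells. The authors' deposited table holds 1 pooled H3K27ac value per group, so differences that involve DKO cells have no replicate check and no p-value here. A difference of 2-fold or more, an absolute log2 of at least 1, is called higher or lower below. Only the change from naive to formative WT carries a replicated test, the authors' DiffBind test over 2 libraries per state.

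Nuclear receptors are transcription factors, many of which are switched by small lipophilic ligands and recognise variants of the hexamer AGGTCA. ESRRB, the estrogen-related receptor beta, binds DNA as a monomer at an extended half-site and sustains naive self-renewal. NR5A2, also called LRH-1, binds a closely similar extended half-site and is known to maintain Pou5f1, the gene of the core pluripotency factor OCT4. NR0B1, also called DAX1, lacks the usual DNA-binding domain and acts mainly as a corepressor of other nuclear receptors. All are characteristic of the naive state, and their transcripts are known to decline as cells leave it.

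In mm10, Esrrb spans chr12:86361117-86521628 on the plus strand, a length of 160.512 kb, with further GENCODE TSSs inside the gene. Nr5a2 spans chr1:136842571-136960448 on the minus strand, 117.878 kb, also with further GENCODE TSSs inside the gene. Nr0b1 is a small gene at chrX:86191764-86195947 on the plus strand, 4.184 kb. Of the RefSeq promoter windows of the 3 genes (250 bases before to 50 after a start, build GRCm38.p6), the only one that a region of the table covered was the internal Nr5a2 promoter. The 2 Esrrb windows, the Nr0b1 window and the distal Nr5a2 window overlapped no region, so the members are mostly intronic or intergenic.

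The member sequences were searched on both strands for 6 short motifs: TCAAGGTCA (estrogen-related receptor), TCAAGGCCA (NR5A), AGGTCA (the nuclear receptor half-site, which is part of the first motif), TTCCNGGAA (STAT3), ATGCAAAT (POU octamer) and GGGTGTGGC (KLF). The estrogen-related receptor motif occurred 9 times in 5 of the 27 regions, 8 times at Esrrb and once at Nr0b1. That is 11.1 matches per 100 kb of member sequence, against 3.36 per 100 kb of all regions of the table. Of the 9 matches, 5 lie in 1 wide Esrrb region, chr12:86481398-86515151, and 0 at Nr5a2. Repeat-masked are 3 of those at Esrrb and the 1 at Nr0b1, as are 48.55% of the matches in all region centres. The following stretches show the 5 matches at Esrrb that lie outside repeat-masked sequence and the match upstream of Nr0b1, which is masked. Each is read on the strand of the match with 10 bases on either side, and capitals mark the motif.
Esrrb chr12:86365580-86365608, plus strand: ttgagtcatgTCAAGGTCAatggaggtca
Esrrb chr12:86479817-86479845, plus strand: ggtggcacctTCAAGGTCAatggctacac
Esrrb chr12:86502049-86502077, plus strand: catccctgctTCAAGGTCAactgaaaagc
Esrrb chr12:86503541-86503569, plus strand: gatccgaagaTCAAGGTCAcccttgatcc
Esrrb chr12:86519833-86519861, plus strand: tgagggactcTCAAGGTCAgtagcttagg
Nr0b1 chrX:86188269-86188297, plus strand: gatcagaagtTCAAGGTCAtcctttagta

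The first of these lies in an Esrrb region near the distal TSS that did not pass the test between states, and the others in regions that fell on the way to the formative state. Of all RefSeq promoters, 0.423% hold this motif, as do 0.939% of the central 300-base windows of the table's regions, and 0 of the 27 member centres do. The NR5A motif also occurred 9 times, 7 at Esrrb and 2 at Nr5a2, or 11.1 per 100 kb against 6.89 in all regions. Of those matches, 8 are repeat-masked, and 75.2% of the matches in all region centres are masked too. Both Nr5a2 matches are among the masked ones, in regions that did not pass the test between states, and are shown on the strand of the match with the motif in capitals.
Nr5a2 chr1:136916552-136916580, minus strand: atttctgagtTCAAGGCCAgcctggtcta
Nr5a2 chr1:136989373-136989401, plus strand: ctctgtgagtTCAAGGCCAgcctgctctg

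The shared hexamer AGGTCA was found in 11 of 27 member centres (40.7%), against 19.5% of all region centres and 16.3% of RefSeq promoters. Over whole regions the excess was smaller, at 100.2 matches per 100 kb of member sequence against 74.0 in all regions. The STAT3 motif occurred once (1.24 per 100 kb against 2.94), the POU octamer 5 times (6.19 against 4.88) and the KLF motif 4 times (4.95 against 2.82). A match is a run of letters and not a measured binding site. The 3 windows below belong to the regions that the results turn on: the end of the Nr0b1 upstream region that faces the gene, the centre of the single intergenic Nr5a2 member that fell between WT states, and the 250 bases before the start at the internal Nr5a2 promoter (from RefSeq). Capitals mark the estrogen-related receptor motif in the first and the half-site in the second. The third, read on the minus strand, holds none of the 6 motifs.
Nr0b1 chrX:86187993-86188292, plus strand: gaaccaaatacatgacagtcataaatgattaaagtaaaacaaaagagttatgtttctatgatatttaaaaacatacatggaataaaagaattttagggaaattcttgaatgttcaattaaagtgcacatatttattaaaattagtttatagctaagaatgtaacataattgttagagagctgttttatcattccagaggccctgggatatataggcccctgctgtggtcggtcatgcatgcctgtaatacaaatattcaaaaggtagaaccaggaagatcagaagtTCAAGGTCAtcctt
Nr5a2 chr1:136972676-136972975, plus strand: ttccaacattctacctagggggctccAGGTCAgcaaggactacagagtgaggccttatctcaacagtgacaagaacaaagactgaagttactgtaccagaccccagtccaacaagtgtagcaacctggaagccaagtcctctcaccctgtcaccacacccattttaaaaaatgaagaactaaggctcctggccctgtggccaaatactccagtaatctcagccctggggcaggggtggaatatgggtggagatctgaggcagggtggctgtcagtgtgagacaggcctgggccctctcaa
Nr5a2 chr1:136953631-136953880, minus strand: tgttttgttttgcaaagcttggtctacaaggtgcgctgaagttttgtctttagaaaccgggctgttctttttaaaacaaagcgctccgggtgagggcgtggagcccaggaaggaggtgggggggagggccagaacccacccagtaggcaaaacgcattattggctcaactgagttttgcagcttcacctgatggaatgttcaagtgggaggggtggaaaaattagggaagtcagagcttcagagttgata

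All regions together set the scale for what follows. Over the 105643 regions above 0 in every group, the median difference was 0.48 for formative against naive WT, -0.10 for naive DKO against WT, -0.63 for formative DKO against WT and -0.07 for formative against naive DKO, on the scale of the deposited log2(value + 1). How the authors scaled the groups to each other is not given in the sources used here, and the median for formative DKO against WT moved between -1.26 and 0.13 under other scalings. Deposited RNA folds, from libraries outside this series, put Kmt2c at -1.15 in naive and -0.91 in formative DKO against WT, and Kmt2d at -0.72 and -0.84. H3K27ac regions of these genes ran from -6.72 to 1.10 for DKO against WT, and none of these values shows which exons are missing. Among naive marker genes, which include the 3 receptors, RNA was called lower in formative than in naive WT for 10 of 12 (median -2.73), where 9.65% of genes were. Among formative markers it was called higher for 5 of the 5 with a value (median 3.31), where 17.1% of genes were. RNA markers of other cell types differed between states and genotypes. In formative against naive WT, 3 of 4 trophoblast markers with a value (median 1.83), 1 of 2 of primitive endoderm (median 1.42) and 3 of 4 of fibroblasts (median 2.04) were called higher, and 1 trophoblast and 1 fibroblast marker lower. In naive DKO against WT, 3 of 4 trophoblast markers with a value (median 2.33), 2 of 2 of primitive endoderm (median 1.95) and 1 of 4 of fibroblasts (median 0.19) were called higher, where 8.54% of genes were. In formative DKO against WT these counts were 0 of 4, 1 of 2 and 3 of 4, with 1 fibroblast marker called lower, where 5.87% of genes were called higher and 5.05% lower. Their part in the values below was not tested.

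H3K27ac fell at most of the member regions as WT cells left the naive state. By the authors' DiffBind test at an adjusted p under 0.05, 15 of the 27 regions fell, 1 rose and 11 did not pass. Of all regions, 15.8% fell and 20.8% rose. The regions that fell were 8 of 13 at Esrrb, 6 of 12 at Nr5a2 and 1 of 2 at Nr0b1. By the pooled values, 18 of the 26 members above 0 in all groups were called lower and 3 higher in formative than in naive WT, where 18.9% and 38.1% of all regions were. The median pooled difference was -2.53 at Esrrb and -2.33 at Nr5a2.

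In these bulk libraries, fewer cells that carry the mark and less of it per cell cannot be told apart. Naive WT was the top group at most members. The deposited H3K27ac value was highest in naive WT at 19 of 26 members (73.1%), against 25.7% of all regions. Esrrb had 7 of 12 such regions, Nr5a2 10 of 12 and Nr0b1 both of its regions. The lowest group was formative WT at 12 of 26 members and formative DKO at 9, against 20011 and 28451 of all 105643 regions above 0 in every group. Because the deposited values shrink with region width, they are compared only between groups within a region and not between regions.

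**Figure D1:**
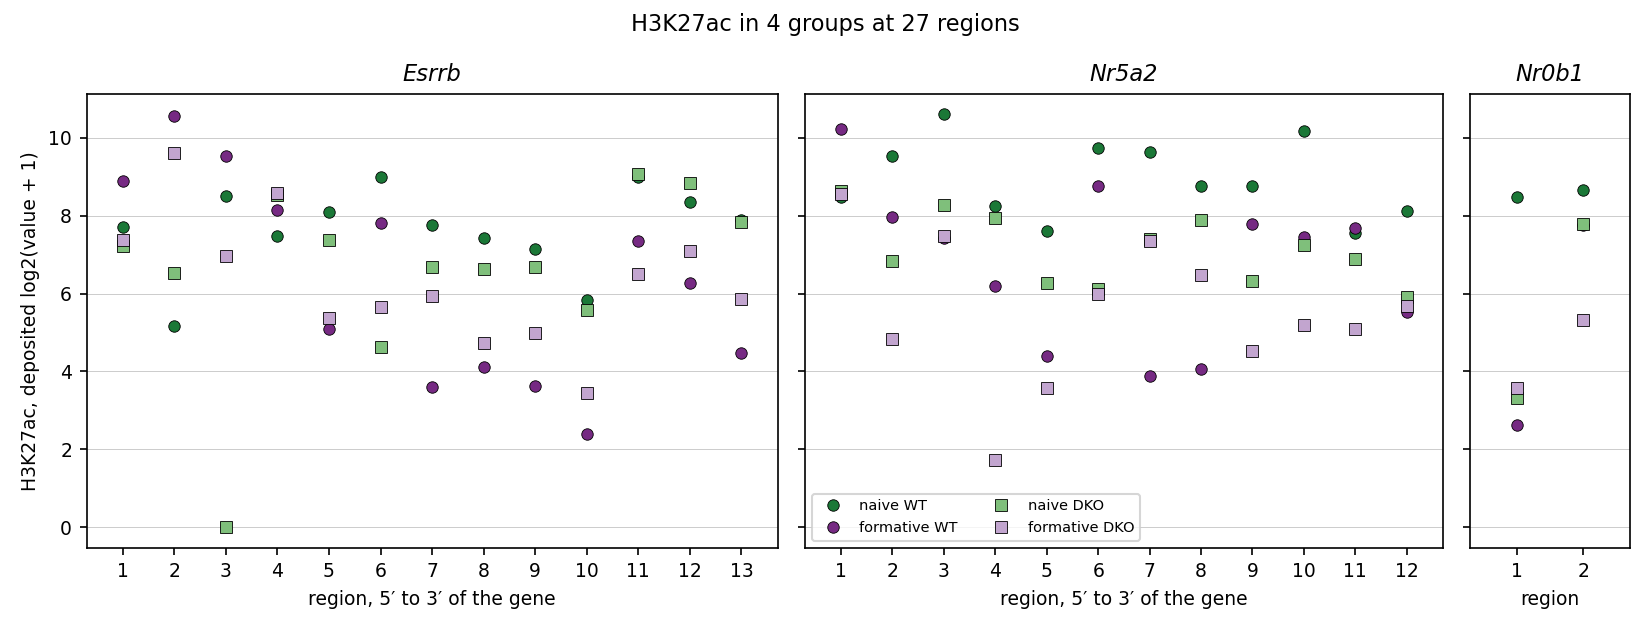
Deposited pooled H3K27ac, log2(value + 1), on the vertical axis for each of the 27 regions in order along each gene, with 1 point per group and no error bars because each point is a pooled value. Naive WT (dark green circles) is the top point at 19 of the 26 regions above 0 in all groups, and Esrrb region 3 is listed at 0 in naive DKO. Points of near-equal value overlap, as at Esrrb region 13, where naive WT lies behind naive DKO.

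At Esrrb the changes were laid out along the gene in a pattern noticed after the values were seen. Upstream of the internal TSS at 86421644 lie 4 regions, of which 0 fell and 1 rose. Downstream of it lie 9 regions that cover 60.258 kb, of which 8 fell. The median pooled difference, formative minus naive WT, was 1.19 over the upstream regions above 0 in all groups and -3.30 over the downstream ones.

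The body of the downstream signal is a run of near-contiguous regions around the TSS at 86470117. Its widest region, chr12:86481398-86515151, covers introns and exons and had pooled values of 5.84 in naive WT, 2.40 in formative WT, 5.57 in naive DKO and 3.45 in formative DKO. Naive cells of both genotypes were high and formative cells of both low, with formative WT lowest. The authors' DiffBind test gave a log2 fold of -3.69 from naive to formative WT (adjusted p = 5.51e-63). This region also had the highest DiffBind concentration per kb of any member in naive WT, 8.65 on a log2 scale, against 4.96 in formative WT.

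The neighbours of that region followed the same order in WT. The region chr12:86471969-86481279 stood at 7.15 in naive WT, 3.62 in formative WT, 6.69 in naive DKO and 4.99 in formative DKO, and the authors' DiffBind log2 fold was -3.57 (adjusted p = 8.58e-74), the smallest p among the members. The region chr12:86465913-86471911, which holds the TSS at 86470117 and a start codon, stood at 7.43, 4.13, 6.63 and 4.73 in the same order of groups, and the authors' DiffBind log2 fold was -3.38 (adjusted p = 6.03e-32). In both, each naive group exceeded each formative group. The deepest fall at Esrrb was in the intronic region chr12:86462643-86465812, at 7.76 in naive WT, 3.60 in formative WT, 6.69 in naive DKO and 5.95 in formative DKO, and the authors' DiffBind log2 fold was -4.43 (adjusted p = 2.55e-27).

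The 3′ end of Esrrb was part of the same fall. The last region, chr12:86518101-86520929, had values of 7.89 in naive WT, 4.48 in formative WT, 7.84 in naive DKO and 5.86 in formative DKO, and the authors' DiffBind test gave -3.75 (adjusted p = 1.84e-25). Naive WT and naive DKO were nearly equal there, and both formative groups were lower. The other downstream regions that fell were 3 with log2 folds by the authors' DiffBind test from -3.05 to -1.85, the weakest of them at an adjusted p = 0.0407. Of these, chr12:86454097-86456287 stood at 8.09 in naive WT, 5.10 in formative WT, 7.38 in naive DKO and 5.37 in formative DKO. The intronic chr12:86516152-86517613 stood at 8.34, 6.26, 8.84 and 7.09 in the same order. In both, each naive group exceeded each formative group. The 9th downstream region, chr12:86457881-86458614, did not pass (log2 fold by the authors' DiffBind test -1.21, adjusted p = 0.308), at 9.01 in naive WT and 7.81 in formative WT.

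The upstream regions near the distal Esrrb TSS did not follow. The narrow intronic region chr12:86366017-86366390 had values of 5.16 in naive WT, 10.55 in formative WT, 6.53 in naive DKO and 9.62 in formative DKO, so that both formative groups were high. It was the only member that rose by the authors' DiffBind test, with a log2 fold of 3.78 (adjusted p = 0.0125). Beside it, chr12:86364838-86365833 stood at 7.71, 8.90, 7.23 and 7.38 in the same order, with formative WT highest, and did not pass (log2 fold by the authors' DiffBind test 1.17, adjusted p = 0.0939). Another, chr12:86380699-86381244, was listed at 0 in naive DKO against 8.51 in naive WT, 9.54 in formative WT and 6.97 in formative DKO, so no fold is given for it against naive DKO. The last of the 4, chr12:86394869-86396351, stood at 7.49 in naive WT, 8.16 in formative WT, 8.53 in naive DKO and 8.59 in formative DKO, with both DKO groups above both WT groups, and did not pass (log2 fold by the authors' DiffBind test 0.73, adjusted p = 0.228).

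**Figure D2:**
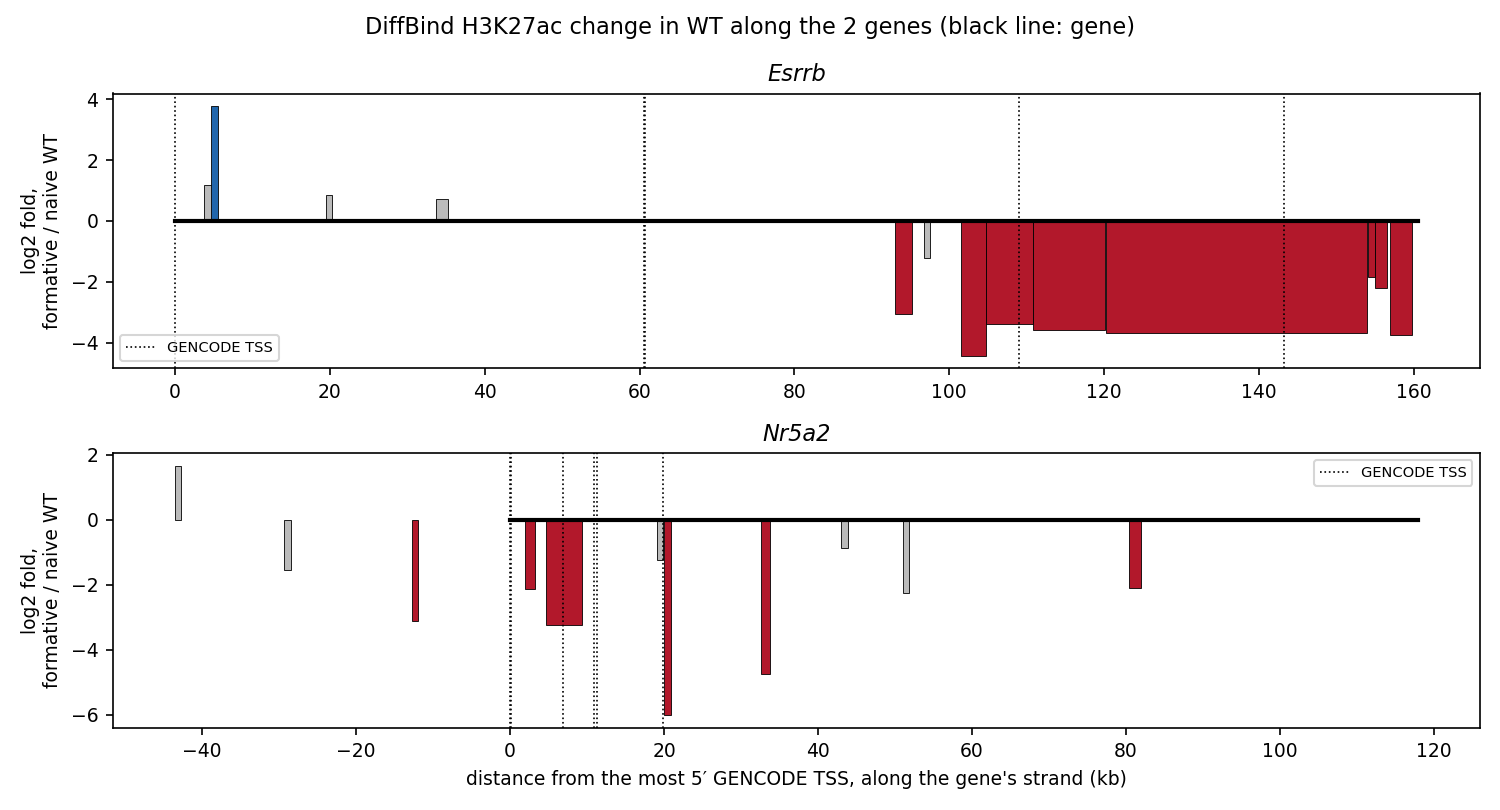
DiffBind log2 fold of H3K27ac, formative against naive WT (vertical axis), at each region of Esrrb and Nr5a2, placed by distance in kb from the most 5′ GENCODE TSS along the gene's strand. Red bars fell and the blue bar rose at an adjusted p under 0.05, grey bars did not pass, dotted lines are TSSs, and regions narrower than 0.8 kb are drawn 0.8 kb wide. At Esrrb the 8 regions that fell lie in the 3′ part of the gene, and at Nr5a2 the 6 that fell lie on both sides of the start and in introns.

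Nr5a2 fell at regions around its start and in its introns. The region that contains the internal promoter, chr1:136951169-136955779, had values of 7.60 in naive WT, 4.40 in formative WT, 6.27 in naive DKO and 3.57 in formative DKO. Each naive value exceeded each formative value, and within each state WT exceeded DKO. The authors' DiffBind test gave a log2 fold of -3.24 (adjusted p = 1.1e-19).

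The deepest fall at the gene was in a region that overlaps a coding exon. This region, chr1:136939576-136940497, stood at 9.64 in naive WT, 3.87 in formative WT, 7.40 in naive DKO and 7.34 in formative DKO, and the authors' DiffBind log2 fold was -6.02 (adjusted p = 3.2e-12). Formative WT alone was low there, and both DKO groups lay between the WT values. The adjacent exonic region, chr1:136940686-136941349, behaved otherwise: it stood at 9.73 in naive WT, 8.78 in formative WT, 6.13 in naive DKO and 5.99 in formative DKO, and did not pass between states (log2 fold by the authors' DiffBind test -1.24, adjusted p = 0.167). Both DKO groups were the low ones at that exon. A GENCODE TSS of Nr5a2, at 136940583, lies between these neighbouring regions.

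A second intronic fall, at chr1:136926686-136927830, went with values of 8.76 in naive WT, 4.07 in formative WT, 7.89 in naive DKO and 6.48 in formative DKO (log2 fold by the authors' DiffBind test -4.74, adjusted p = 7.03e-07). Formative WT was again the lowest group. The intergenic region whose centre is shown above, chr1:136972546-136973107, lies 12378 bases upstream of the TSS and had 10.61 in naive WT, 7.43 in formative WT, 8.28 in naive DKO and 7.47 in formative DKO (log2 fold by the authors' DiffBind test -3.11, adjusted p = 0.00362). Naive WT stood apart from the other groups there. Of the remaining Nr5a2 regions, 2 fell with log2 folds of -2.12 and -2.10 by DiffBind and 5 did not pass, with log2 folds from -2.24 to 1.67.

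The second of those that fell, chr1:136878562-136880064, lies 74317 bases downstream of the TSS that the authors assigned. It stood at 8.12 in naive WT, 5.52 in formative WT, 5.91 in naive DKO and 5.68 in formative DKO. Naive WT alone was high there. Among those that did not pass, the intronic chr1:136887118-136888162 stood at 7.56 in naive WT, 7.68 in formative WT, 6.88 in naive DKO and 5.09 in formative DKO. The regions that hold the NR5A matches were chr1:136916500-136917475, at 8.77, 7.79, 6.33 and 4.52 in the same order of groups, and chr1:136988925-136989875, at 9.53, 7.97, 6.85 and 4.84. In these 3 regions both WT groups exceeded both DKO groups, and formative DKO was lowest.

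Nr0b1 showed the largest WT change of all members. Its upstream region, chrX:86186644-86188292, 4307 bases before the TSS, had values of 8.49 in naive WT, 2.63 in formative WT, 3.31 in naive DKO and 3.58 in formative DKO. Naive WT was high and the other groups were low and close together. The authors' DiffBind test gave a log2 fold of -6.58 (adjusted p = 8.31e-18). Regions of chromosome X had a median pooled difference of -0.54 between WT states, beside 0.37 on chromosome 1 and 0.67 on chromosome 12, and the part of this chromosome-wide difference in the Nr0b1 change was not tested. The second region, chrX:86223441-86224398, lies 32144 bases downstream of the TSS, and 92.9% of its bases are repeat-masked. It stood at 8.67 in naive WT, 7.76 in formative WT, 7.79 in naive DKO and 5.31 in formative DKO, and did not pass (log2 fold by the authors' DiffBind test -0.88, adjusted p = 0.218).

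In naive cells the receptors differed in how far H3K27ac was lower without MLL3 and MLL4. Of 26 members, 11 were called lower and 2 higher in naive DKO than in naive WT, where 26.3% and 19.2% of all regions were. These were 8 lower and 0 higher of 12 at Nr5a2, 2 and 2 of 12 at Esrrb, and 1 and 0 of 2 at Nr0b1. The median difference was -2.23 at Nr5a2 and -0.37 at Esrrb, beside -0.10 for all regions. Whether the genes differ could not be tested, since each region has 1 pooled value per group and regions of a gene are not replicates.

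At Nr5a2 the value was lower in naive DKO than in naive WT at 11 of 12 regions, and at 11 or 12 under each of the other 4 scalings. The largest differences were -3.60 at the exonic region chr1:136940686-136941349 and -2.93 at the intronic region chr1:136908854-136909301, which stood at 10.19 in naive WT, 7.47 in formative WT, 7.25 in naive DKO and 5.18 in formative DKO. The single region that was not lower was chr1:137003355-137003799, 43129 bases upstream, at 8.48 in naive WT, 10.22 in formative WT, 8.64 in naive DKO and 8.57 in formative DKO. Formative WT alone was high at that region.

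Most Esrrb regions that fell in WT were within 2-fold between genotypes in the naive state as deposited. Over the 8 Esrrb regions that fell in WT, naive DKO minus WT ran from -1.07 to 0.50, with a median of -0.37, and 1 was called lower. Centring on promoters gave an Esrrb median of -0.94, with 6 of 12 regions called lower, and called 5 of the 9 regions downstream of the internal TSS lower. Under the other 3 scalings the Esrrb median was -0.16 to -0.08, with 1 region called lower. The median of all regions was -0.67 after centring on promoters and 0.08 to 0.19 under the others. Among the Esrrb regions above 0 in all groups, the largest difference, -4.39, was at chr12:86457881-86458614. It stood at 9.01 in naive WT, 7.81 in formative WT, 4.62 in naive DKO and 5.66 in formative DKO, where both DKO groups were low. Left out of these counts is chr12:86380699-86381244, listed at 0 in naive DKO against 8.51 in naive WT. Esrrb regions called higher in naive DKO were chr12:86366017-86366390 (1.37) and chr12:86394869-86396351 (1.04).

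At Nr0b1 the upstream region was lower in naive DKO than in naive WT by -5.18 on the log2 scale, the largest genotype difference in either state among the 26 members above 0 in all groups. The downstream region differed by -0.88. Regions of chromosome X had a median of -0.77 in this comparison, below the -0.16 of chromosome 1, where Nr5a2 lies, and the -0.12 of chromosome 12, where Esrrb lies. The part of this chromosome-wide difference in the Nr0b1 value was not tested.

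In formative cells the medians of Esrrb and Nr5a2 had opposite signs as deposited. Of 26 members, 6 were called higher and 10 lower in formative DKO than in formative WT, where 11.2% and 39.3% of all regions were. Esrrb had 4 higher and 2 lower, with a median of 0.52. Nr5a2 had 2 higher and 7 lower, with a median of -1.97, which was below 0 under each of the 5 scalings. The Esrrb median was 1.00 to 1.73 under median centring, scaling by the sum and quantile normalization, and -0.12 after centring on promoters. The median of all regions was -0.63 as deposited, -0.15 to 0.13 under the former scalings and -1.26 after centring on promoters. Region widths also differed between the genes, reaching 33755 bases at Esrrb and 4612 at Nr5a2. Over all regions Pearson's r between this difference and log2 width was 0.28, and over the 12 Nr5a2 regions it was 0.10. The part of width in the contrast between the genes was not tested.

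Of the 8 Esrrb regions above their WT value in formative DKO, 7 lay downstream of the internal TSS. There formative DKO exceeded formative WT at 7 of 9 regions, with a median of 0.83, and at 5 of 9 after centring on promoters. The largest were 2.35 at chr12:86462643-86465812, 1.38 at chr12:86518101-86520929, 1.37 at chr12:86471969-86481279 and 1.05 at the widest region. All regions of the table had a median of -0.63 in the same comparison. The signs at Esrrb also divided by region width. Regions above 0 in all groups were above WT if 1463 bases or wider, and below it if 997 bases or narrower. Over the 12 Esrrb regions Pearson's r between this difference and log2 width was 0.66 (Spearman's rho 0.79), beside 0.28 (rho 0.29) over all regions. Position along the gene and width were not separated, and the part of width was not tested. The 9 downstream regions were set apart after their change in WT was seen. The difference subtracts formative WT, which that change shares, so it is a description only.

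Nr5a2 held differences of both signs in formative cells. The exon-overlapping region chr1:136939576-136940497 was 3.47 higher in formative DKO than in formative WT on the log2 scale, and chr1:136926686-136927830 was 2.41 higher. By contrast chr1:136957190-136958462, which is intronic, was lower by -4.46, at 8.26 in naive WT, 6.19 in formative WT, 7.95 in naive DKO and 1.73 in formative DKO. Formative DKO alone was low at that region. The Nr5a2 regions that fell in WT had a median of 0.09 for formative DKO against WT, and the 6 that did not fall a median of -2.69, with 6 of 6 called lower. The split uses formative WT values, which this difference shares, so it is a description only.

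The Nr0b1 upstream region was higher in formative DKO than in formative WT by 0.95, short of 2-fold, and the downstream region was lower by -2.45. Both groups were near the low end at the upstream region. Chromosome X had a median of -0.71 in this comparison.

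By the pooled values, the medians of Esrrb and Nr5a2 differed less between states in DKO than in WT. From naive to formative DKO, 15 of 26 members were called lower and 2 higher, where 17.9% and 16.6% of all regions were. The median was -1.72 at Esrrb and -1.60 at Nr5a2, beside -2.53 and -2.33 in WT. The median difference of the changes, DKO minus WT, was 1.15 at Esrrb and 0.58 at Nr5a2. The difference between the genotypes in the change of state, DKO minus WT, was at least 1 at 11 members and at most -1 at 6, where 19.5% and 36.3% of all regions were, with a median of 0.73 beside -0.39 for all regions. No test of these differences was possible with pooled values.

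Downstream of the internal Esrrb TSS the change was -1.90 in DKO and -3.30 in WT by the medians of 9 regions. The difference of the changes exceeded 0 at 8 of 9 regions as deposited and under each other scaling, with medians from 1.35 to 2.59. These 9 regions were set apart after their change in WT was seen, and the difference subtracts that change, so it is a description only. As deposited, the exception was chr12:86515263-86516061, at 9.0 in naive WT, 7.36 in formative WT, 9.07 in naive DKO and 6.51 in formative DKO. Its difference was -0.92, with formative DKO the lowest group.

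The largest differences of the changes were at single regions of the other genes. At the Nr0b1 upstream region the change was -5.87 in WT and 0.27 in DKO, a difference of 6.13, and naive DKO was near the formative groups. At chr1:136939576-136940497 of Nr5a2 it was -5.77 in WT and -0.05 in DKO, a difference of 5.72, with both DKO groups at an intermediate level. The opposite extreme, -4.15, was at chr1:136957190-136958462, where DKO went from 7.95 to 1.73.

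**Figure D3:**
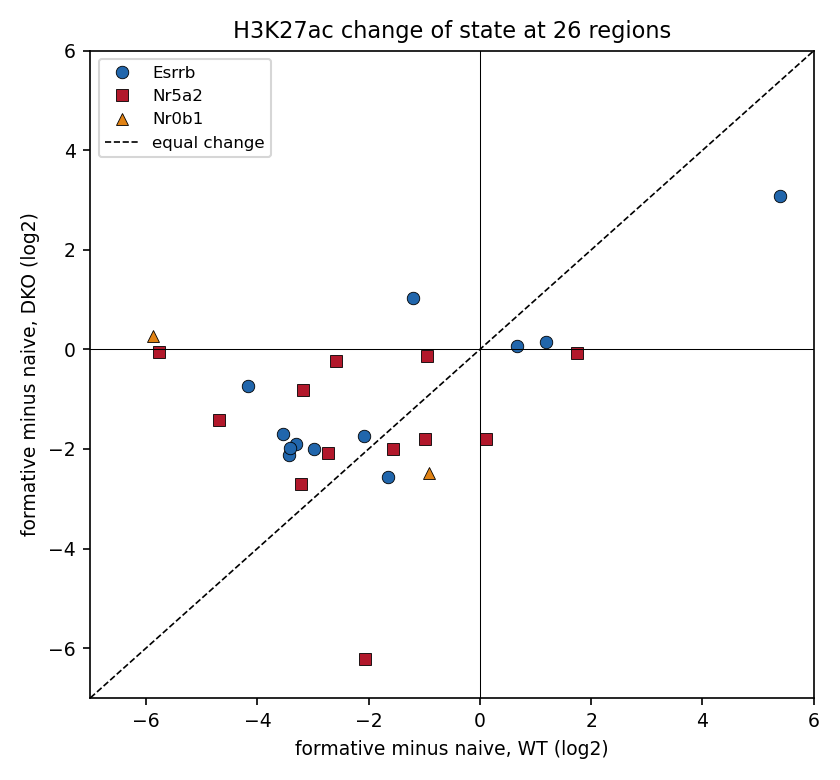
Difference of pooled H3K27ac, formative minus naive (log2), in WT (horizontal axis) and DKO (vertical axis) for the 26 regions above 0 in all groups, coloured by gene, with a dashed line of equal change. Most Esrrb points lie to the left of 0 and above the line, and the Nr0b1 upstream region and 1 Nr5a2 region sit near 0 in DKO with WT changes of -5.87 and -5.77.

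H3K4me1, the mark that MLL3 and MLL4 place, was compared through the authors' deposited log2 folds, which come from libraries outside this series. In naive DKO against WT, 7 of 27 members were called lower and 0 higher, where 18.7% and 5.03% of all regions were. In formative cells 5 were lower and 1 higher, where 16% and 10.5% were. The median fold was -0.49 in naive and -0.18 in formative cells at Esrrb, and -0.83 and -0.56 at Nr5a2, beside medians of -0.30 and -0.02 for all regions. Between states, 4 members were lower and 1 higher in WT (background 15.5% and 5.88%), and 3 lower and 0 higher in DKO (2.93% and 2.75%).

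The large Esrrb regions kept H3K4me1 near the WT level. At chr12:86471969-86481279 the deposited fold was 0.47 in naive and 0.37 in formative DKO against WT, at chr12:86465913-86471911 it was 0.27 and 0.23, and at the widest region -0.19 and -0.11. None of these reached 2-fold. The lowest folds at Esrrb lay at narrow regions: -1.91 in naive cells at chr12:86457881-86458614 and -2.0 in formative cells at chr12:86366017-86366390.

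In naive cells the members with less H3K4me1 in DKO were mostly those with less H3K27ac. Of the 7 members called lower in H3K4me1, 6 were called lower in H3K27ac too (median -2.68), against 5 of the 19 others (median -0.48). Over all regions the shares were 47% and 21.5%. The 6 were 4 at Nr5a2, 1 at Esrrb and the Nr0b1 upstream region, where the H3K4me1 fold was -1.52. The 7th was chr12:86454097-86456287 of Esrrb, at -1.02 for H3K4me1 and -0.71 for H3K27ac.

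In formative cells the marks were compared in the same way. Here 3 of 5 members called lower in H3K4me1 were called lower in H3K27ac, against 7 of 21 others, where 57.1% and 36.0% of all regions did. The Nr5a2 region chr1:136939576-136940497 combined an H3K4me1 fold of -1.47 with the largest positive H3K27ac difference, 3.47. As a description across regions, which share libraries and are not replicates, Pearson's r between the folds of the marks was 0.58 in naive and 0.07 in formative cells over 26 members, beside 0.27 and 0.23 over all regions. Over the 12 Esrrb regions r was 0.55 (Spearman's rho 0.06) in naive and 0.60 (rho 0.76) in formative cells, and over the 12 Nr5a2 regions 0.55 (rho 0.57) and -0.21 (rho -0.13).

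**Figure D4:**
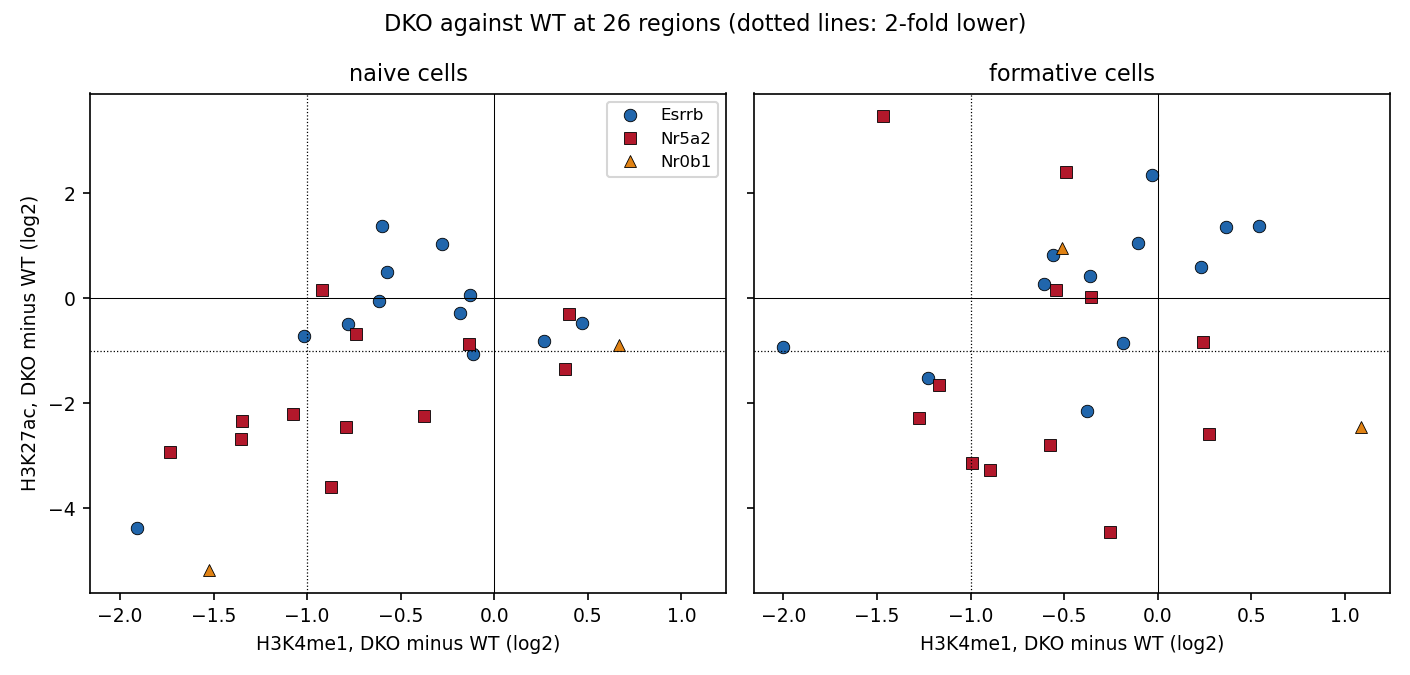
DKO minus WT log2 difference of H3K27ac (vertical axis) against the deposited log2 fold of H3K4me1 (horizontal axis) at 26 regions, in naive cells on the left and formative cells on the right, with dotted lines at 2-fold lower. In naive cells 6 of the 7 regions left of the dotted line also lie below the horizontal one, and in formative cells 3 of 5 do.

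RNA of the 3 genes was read from the authors' deposited folds for 4 genotype labels, WT, CKO, DKO and dCD, from libraries outside this series. The sources used here do not spell out CKO and dCD, and the folds have no error. Esrrb RNA differed by -3.98 (log2, formative minus naive) in WT, -3.18 in CKO, -2.07 in DKO and -2.50 in dCD. Nr5a2 RNA differed by -2.80 in WT, -2.07 in CKO, -2.06 in DKO and -2.14 in dCD. Both genes were called lower in formative cells of each genotype label, where 9.65%, 8.7%, 5.15% and 8.71% of 9781 genes were in the same order.

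Nr0b1 RNA did not follow in DKO. It differed by -3.24 in WT, -3.33 in CKO and -2.05 in dCD, and by 0.87 in DKO, the single positive value among the 12 changes of state. The change in DKO minus that in WT was 4.11 for Nr0b1, 1.91 for Esrrb and 0.74 for Nr5a2 on the log2 scale. In CKO these differences were -0.09 for Nr0b1, 0.80 for Esrrb and 0.73 for Nr5a2. In dCD they were 1.19 for Nr0b1, 1.48 for Esrrb and 0.66 for Nr5a2.

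Within the naive state, DKO minus WT was -1.82 for Nr0b1, -0.89 for Esrrb and -0.76 for Nr5a2, so that Nr0b1 alone was called lower, as 11.2% of genes were. Within the formative state it was 2.29 for Nr0b1, 1.02 for Esrrb and -0.02 for Nr5a2, and Nr0b1 and Esrrb were called higher, as 5.87% of genes were. The dCD folds were -1.25 for Esrrb in naive cells and 1.19 for Nr0b1 in formative cells, called lower and higher as 5.19% and 4.72% of genes were. All other CKO and dCD folds against WT stayed short of 2-fold, from -0.80 to 0.75.

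**Figure D5:**
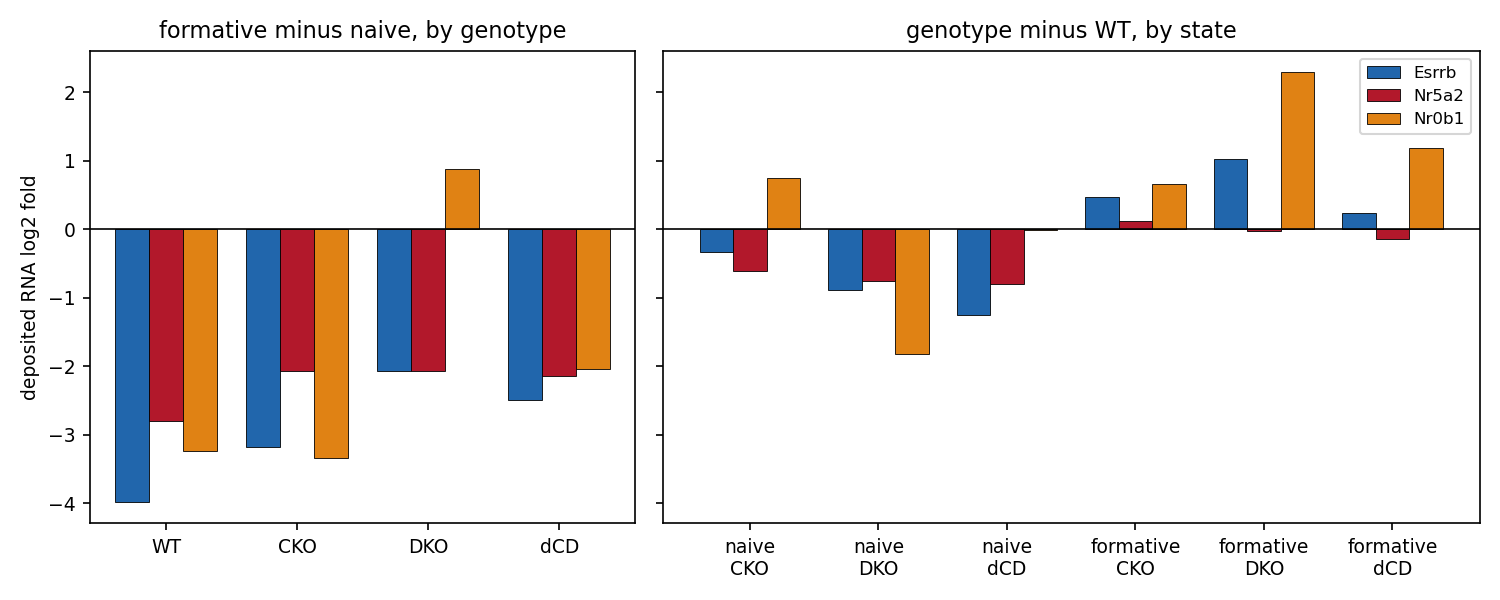
Deposited RNA log2 folds of the 3 genes, formative minus naive for each genotype label on the left and genotype minus WT for each state on the right, as bars from 0 with no error bars. Nr0b1 in DKO stands at 0.87 on the left where every other bar is at -2.05 or below, and at 2.29 in formative DKO on the right.

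Set side by side, acetylation and RNA differed in size and at places in sign. At Nr5a2, formative DKO against WT had a median of -1.97 for H3K27ac and -0.02 for RNA, and naive DKO against WT -2.23 and -0.76. At Esrrb, formative DKO against WT had a median of 0.52 for H3K27ac (-0.12 after centring on promoters) and 1.02 for RNA, and naive DKO against WT -0.37 and -0.89. At Nr0b1, naive DKO against WT was -5.18 at the upstream and -0.88 at the downstream region and -1.82 for RNA, and formative DKO against WT 0.95, -2.45 and 2.29. These come from different libraries, and no joint test was possible.

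The rest of the naive transcription factor network was read from a list of 12 genes: Klf2, Klf4, Klf5, Tfcp2l1, Tbx3, Zfp42, Nanog, Prdm14, Pou5f1, Sox2, Sall4 and Stat3. By DiffBind, 8 of these genes had regions within 100 kb that only fell, 4 had both kinds and 0 only rose, where 22.6%, 14% and 34.4% of all genes did. Of their 146 regions, 84 fell and 9 rose, where 15.8% and 20.8% of all regions did. Gene medians were called lower in formative WT for 8 of 12 (background 14.3%), led by Sox2 (-3.52), Zfp42 (-3.47), Tbx3 (-3.07) and Klf4 (-2.93). Sox2 encodes a core pluripotency factor, and Zfp42 (REX1), Tbx3 and Klf4 are known naive-state genes.

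In DKO against WT the medians of this network were small. The median was -0.25 in naive DKO against WT, with 3 of 12 genes called lower (background 20%), and 0.09 in formative DKO against WT, with 3 of 12 called higher (background 7.54%). The formative value was -0.54 after centring on promoters and 0.99 under quantile normalization, so its sign depended on the scaling. The sign of the naive value did too (-0.83 to 0.04). In the formative comparison the median over all genes was -0.62 as deposited, -1.25 after centring on promoters and 0.10 under quantile normalization. The list stood above all genes there under each scaling, and below all genes in the naive comparison. Both differences subtract a WT value that the change in WT shares, and the list was chosen with earlier results known. They are therefore a description only. Sox2 (1.66), Tbx3 (1.39) and Klf4 (1.22) were the genes called higher in formative DKO, and 1 to 6 genes were under the other scalings. The DKO change of state had a median of -0.90, with 6 of 12 called lower (background 10.7%), beside a median of -1.97 for the WT change. RNA was called lower in formative cells for 7 of the 11 genes with a value in WT and for 7 in DKO (background 9.65% and 5.15%), and 6 genes were in both counts.

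Other nuclear receptors and their coregulators, a list of 37 genes of which 34 had a region, were counted in the same way. By DiffBind, regions only fell at 3 genes, only rose at 11, did both at 9 and passed the test in neither direction at 11. The share that only rose was near the 34.4% of all genes, and those that only fell and did both stand beside 22.6% and 14% of all genes. Gene medians were called higher in formative WT for 19 of 32 (background 36.6%) and lower for 2, with a median of 1.15. That median stayed above 0 under each scaling (0.70 to 1.33), as did the median over all genes (0.05 to 0.68). The number called higher ran from 10 to 21. Thrb, a thyroid hormone receptor, stood at 2.89, Nr6a1, the germ cell nuclear factor, at 2.01, Nr1d1, a circadian repressor, at 1.86, and Ncoa1, a coactivator, at -1.82. In formative DKO against WT 16 of 32 were called lower (background 37.4%), and the median of -1.06 was below 0 under each scaling (-1.69 to -0.23). The median over all genes ran from -1.25 to 0.14, and the number called lower in the list from 6 to 22.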

How the data were processed

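Per the submitters' processing notes, Trim Galore, Bowtie2, SEACR, DiffBind and deepTools were used with mm10. For their versions and roles: not given in the sources used here. A single table, 112137 regions in 47 columns, was deposited by the authors. Its H3K27ac columns are pooled log2 values per group, log2(value + 1), per the file headers and values, and the DiffBind columns hold a log2 concentration per state, a log2 fold and an adjusted p-value as the authors deposited them. H3K4me1 and RNA log2 folds are also the authors' deposited columns, and 12 columns of group levels were not used. Distances to the TSS (unit other) are as deposited. Read depth is unknown, so no counting interval is given; the design text says replicates were cultured and prepared independently.

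From these, differences of the pooled values were taken and called at an absolute log2 of at least 1 (2-fold), over the 105643 regions above 0 in all 4 groups. The log2 fold columns equalled column differences to within 9.8e-06. Tests over single libraries had been planned and were not possible with pooled columns. The pooled values scaled with width to the power -1.97 in naive and -2.00 in formative WT, at equal DiffBind concentration. Scripts ran in Python 3.11.15 with pandas 2.3.3, numpy 2.4.6 and matplotlib 3.10.9. The differences, their calls and quantile normalization were tested on deposited naive WT values with known folds added. Motifs were counted in GRCm38.p6, whose chromosome lengths hold every region.

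The members and lists were chosen with earlier results of these data known. Named are all 3 members and each of their regions, and from each list at most 4 genes per comparison, those with the largest absolute gene median among genes with at least 3 regions within 100 kb. Genes most like a member were the 3 at the smallest Euclidean distance over 3 gene medians. Alternatives were median, promoter and sum scaling, quantile normalization, distances of 50 and 20 kb, regions at 0, a 1.5-fold call and an adjusted p under 0.01.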

Additional observations from a re-analysis of the deposited data

How the results depend on the processing

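Of 174 alternative values for 26 results, 142 were counted as the same, 20 moved, 7 passed and 2 no longer passed the 2-fold call, and 3 past that call reversed. Medians and single folds counted as the same kept their direction and their side of the threshold. Counts of regions have neither, and some counted as the same still differed. For regions lower in formative against naive WT these were 18 as the main value and 12 within 50 kb. Part of the 142 could not change, because the Nr0b1 upstream fold is 1 region and no median depends on the fold call. The reversals were of Esrrb medians at shorter distances: formative minus naive WT was 3.29 within 20 kb, and formative minus naive DKO was 0.063 within 50 kb and 1.62 within 20 kb. Within 20 kb the Esrrb regions above 0 in all groups are 2, both upstream of the internal TSS, and within 50 kb they are 3 upstream and 4 downstream. Among the values that moved, 3 more Esrrb medians, short of 2-fold as deposited, changed sign: naive DKO against WT within 20 kb, and formative DKO against WT within 20 kb and after centring on promoters. With fewer regions, the counts also shrank. Within 20 kb they were, for 2-fold lower or higher, 5 lower in formative against naive WT, 1 higher and 5 lower in naive DKO against WT (Esrrb median 0.44), 1 higher and 3 lower in formative DKO against WT (Esrrb median -1.23, Nr5a2 -0.83), and 1 higher and 2 lower in formative against naive DKO (Nr5a2 median -0.81). Within 50 kb they were 3 higher in formative DKO against WT and 9 lower in formative against naive DKO. DiffBind falls numbered 9 within 50 kb and 5 within 20 kb, and 0 regions rose at an adjusted p under 0.01. The Esrrb H3K4me1 median in formative DKO against WT was -1.23 within 20 kb.

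Scaling moved the DKO comparisons. In naive DKO against WT, centring on promoters gave 0 higher and 18 lower. In formative DKO against WT, the number higher was 11 under median centring, 3 after centring on promoters and 12 under quantile normalization. The Esrrb median there was 1.28, -0.12, 1.00 and 1.73, and the Nr0b1 upstream region 1.72, below 2-fold, 1.44 and 2.66, under median centring, promoter centring, sum scaling and quantile normalization. In the same order of scalings, the median of all regions in that comparison was 0.13, -1.26, -0.15 and 0.10. Why the scalings differ was not tested. No paired analysis was possible because the columns carry 1 pooled value per group, and leaving out replicates was not possible for the same reason. Depth is unknown, so the weight of low values such as 1.73 in formative DKO cannot be stated.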

Other observations

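Nr5a2 had 7 further regions beyond 100 kb upstream, from 195.532 kb to 500.894 kb from its TSS, all intergenic. By DiffBind 4 of them fell and 1 rose. The region chr1:137417972-137418895, 457.985 kb away, stood at 10.42 in naive WT, 5.57 in formative WT, 9.45 in naive DKO and 6.32 in formative DKO, and the authors' DiffBind log2 fold was -4.93 (adjusted p = 3.09e-19). Each naive group exceeded each formative group there. A pair of neighbouring regions near 214 kb behaved differently: chr1:137173778-137174919 stood at 9.24 in naive WT, 5.31 in formative WT, 7.85 in naive DKO and 8.05 in formative DKO, and chr1:137175547-137176348 at 9.07, 3.89, 7.14 and 7.48. Formative WT alone was low in both, and formative DKO exceeded it by 2.73 and 3.59, much as at the Nr5a2 region that overlaps a coding exon. Whether these regions act on Nr5a2 is not shown by the table, which assigns them by the nearest TSS.

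Among 10646 genes with at least 3 regions above 0 in all groups, those whose 3 median differences from naive WT lay nearest to Esrrb were Mir204 (Euclidean distance 0.18 in log2 units), Zfp987 (0.24) and Zfp970 (0.25). Nearest to Nr5a2 were 4930425L21Rik (0.31), Ifit1 (0.36) and Zfand1 (0.39). Esrrb and Nr5a2 lay 2.31 apart, Nr5a2 ranked 1325 by nearness to Esrrb, and Esrrb ranked 525 by nearness to Nr5a2. Nr0b1 had too few regions for this measure.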
